A study of Rattus norvegicus with 12 samples.

Results

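The rat microRNAs (miRNAs) rno-miR-199a-5p, rno-miR-199a-3p and rno-miR-214, written below without the rno prefix, were examined in soleus muscle of 12 rats, as 3 of the 677 rat miRNAs listed on the array. They were taken by name, without their star strands, and earlier results of these data were known when they were chosen. A miRNA gene is copied into a hairpin whose arms are cut out as mature miRNAs, and a mature miRNA represses messenger RNAs that pair with its seed, bases 2 to 8. miR-199a-5p and miR-199a-3p are opposite arms of the miR-199a hairpin, and miR-214 is 1 arm of a hairpin that lies close by. The pair of hairpins is known to be transcribed together from Dnm3os, a long RNA antisense to the dynamin gene Dnm3, and to be abundant in fibroblasts and other mesenchymal cells. miR-199a-5p is known for repressing caveolin-1 and for being raised in fibrotic tissue, miR-199a-3p for repressing mTOR, and miR-214 for repressing Ezh2 when muscle progenitors differentiate.

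The rats were male Sprague-Dawley offspring aged 1 year. The 6 control offspring came from dams on chow, and the other 6 from dams given food high in saturated fat and sucrose from before mating until the end of lactation. All offspring ate chow after weaning. Each soleus, a slow postural muscle, was hybridised to its own 1-colour array, and each of the 2 slides, read from the names of the array tables, held 3 control and 3 high fat rats. The comparison of the groups addresses whether the dam's diet left a mark on miRNAs in the adult muscle. Nothing in the labels says which rats were litter mates, so the p-values measure the spread between these rats.

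The mature sequences are printed because they set which arm each value belongs to and which messages a miRNA can pair with. Positions are those of the RefSeq rat assembly GRCr8 on the plus strand, and capitals mark the seed.
miR-199a-5p, chr13:77116255-77116277: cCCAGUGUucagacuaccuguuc
miR-199a-3p, chr13:77116294-77116315: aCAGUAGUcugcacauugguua
miR-214, chr13:77121713-77121733: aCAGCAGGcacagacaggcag
The miR-199a arms lie 16 bases apart, and 5329 bases separate miR-199a-3p from the start of the miR-214 hairpin. The hairpins of both genes fall inside the annotated span of Dnm3. The hairpin of miR-214 is shown with the measured arm, bases 69 to 89, in capitals.
Mir214 hairpin, chr13:77121645-77121752: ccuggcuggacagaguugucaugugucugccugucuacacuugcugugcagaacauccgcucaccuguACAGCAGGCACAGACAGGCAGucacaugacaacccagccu
The seeds of miR-199a-3p and miR-214, aligned without gaps, share 5 of 7 bases, and those of miR-199a-5p and miR-214 share 2 of 7. In the RefSeq table no other miRNA of the array has the seed of any of the 3. The opposite arm of the miR-214 hairpin, miR-214*, was detected on 0 of 12 arrays. miR-3120, read from the other strand of the same hairpin and named after the values were seen, was also detected on 0 of 12 arrays.

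The values are total signal intensities per miRNA, each array divided by its 75th percentile and then multiplied by the same constant. The 75th percentile ran from 864 to 1911 units over the arrays, and between 177 and 220 miRNAs were detected per array. The muscle fibre miRNAs miR-1, miR-133a, miR-133b, miR-206 and miR-499 were detected in all 12 rats. One rat of the high fat group, H3, stood apart from the others. Its slow-fibre miRNA miR-499 was at 366 scaled signal units (4553 to 9137 in the other 11 rats), and miR-208b-3p, which lies in a slow myosin gene, was undetected in it. miR-206 was also lowest there, at 9354 against 30841 to 60699 units. In contrast, miR-1, at 136123 against 51591 to 106415, and the red blood cell miR-451, at 3054 against 402 to 2363, were highest in H3. The fibre miRNAs miR-133a (2976 units) and miR-133b (96266) lay in H3 within the range of the other rats. So did the blood miRNAs miR-144 (241), miR-142-3p (447), miR-142-5p (43.6) and miR-223 (425), while miR-150, at 304 against 503 to 790, was lowest in H3. The endothelial miR-126 was at 2004 units in H3 against 3951 to 5427 in the others, and miR-143, of smooth muscle and fibroblasts, at 2813 against 4770 to 6492. Of the other fibroblast and mesenchyme markers, miR-145 (46.5 against 74.3 to 149) and miR-152 (109 against 124 to 265) were also lowest in H3. In contrast, miR-21, at 6029 units, lay within the 3890 to 7078 of the other rats. Of the liver and epithelium markers, the liver miR-122 was detected on 10 of 12 arrays, at up to 406 units, miR-200a and miR-200b on 1 array each, that of H3, at 12.2 and 8.82 units, and miR-141 on none. The part of these signals in the results was not tested. The main comparisons of the 3 miRNAs, their likeness to other miRNAs and the list medians are therefore also given without H3.

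All 3 miRNAs were detected on all 12 arrays. In control offspring the scaled signal of miR-199a-5p ran from 451 in rat A75 to 1202 in A89, with a median of 870 and a mean of 868 ± 301 (SD, n = 6). Among the high fat offspring it ran from 312 in H3 to 1368 in C25, with a median of 501 and a mean of 658 ± 398 (SD, n = 6). The highest and the lowest of the 12 rats were thus both in the high fat group, and the control range lay inside the high fat range.

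For miR-199a-3p the control rats ran from 2000 units in A75 to 5035 in A89, with a median of 3464 and a mean of 3555 ± 1112 (SD, n = 6). The high fat rats ran from 1676 in H3 to 5116 in C25, with a median of 2023 and a mean of 2751 ± 1429 (SD, n = 6). The same rats stood at both ends as for the opposite arm, and the control range again lay inside the high fat range.

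For miR-214 the control rats ran from 304 units in A75 to 1056 in C73, with a median of 754 and a mean of 698 ± 277 (SD, n = 6). The high fat rats ran from 252 in A37 to 907 in C25, with a median of 354 and a mean of 502 ± 292 (SD, n = 6). Here H3, at 354 units, was not the lowest rat, and the highest of all rats was a control. A75 was the lowest control rat and C25 the highest high fat rat for each of the 3 miRNAs.

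**Figure D1:**
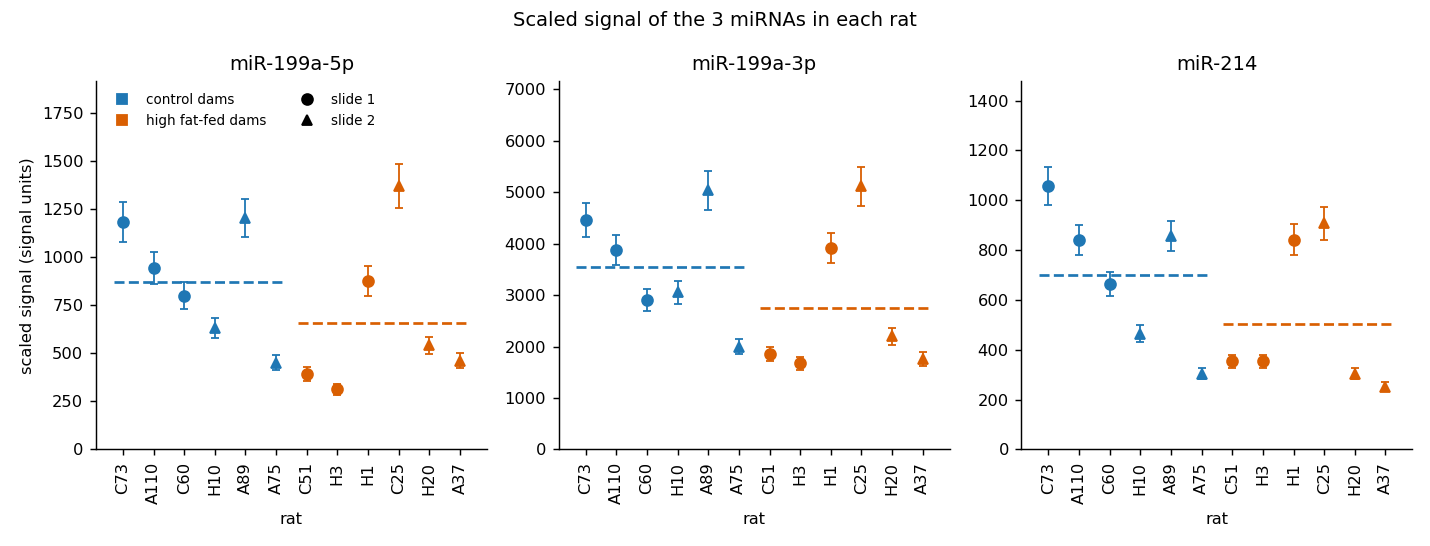
Scaled signal (signal units) of miR-199a-5p, miR-199a-3p and miR-214 in each of 12 rats. Points are rats, coloured by dam diet and shaped by slide, bars are the error that the scanner software gives for that array, and dashed lines are the means of 6 rats. The rats spread more widely than the bars, which leave out extraction, labelling and hybridisation, and the groups overlap in each panel.

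The spread over the rats was wide. The highest rat exceeded the lowest 4.38-fold for miR-199a-5p, 3.05-fold for miR-199a-3p and 4.19-fold for miR-214. The coefficient of variation between control rats was 34.7%, 31.3% and 39.7% in that order, and between high fat rats 60.5%, 51.9% and 58.0%. The software's own error on 1 array was 8.31% to 8.86% of the signal for miR-199a-5p, 7.36% to 7.41% for miR-199a-3p and 7.15% to 7.34% for miR-214. That error leaves out extraction, labelling and hybridisation, and with 1 array per rat the spread holds these steps as well as the rats. Without H3 the high fat rats still varied by 55.5%, 50.1% and 59.3%. On the log2 scale the spread within the diet groups was 0.68 for miR-199a-5p, 0.59 for miR-199a-3p and 0.73 for miR-214. Of the 162 miRNAs detected on all arrays, 9 (5.56%) had a larger spread than miR-199a-5p, 17 (10.5%) than miR-199a-3p and 8 (4.94%) than miR-214. Over the 193 detected on at least 6 arrays, which include dim ones set to the floor on some arrays, the shares were 16.1%, 21.8% and 15.5%. In whole muscle, fewer cells of a type and less RNA per cell cannot be told apart.

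The 3 miRNAs varied together from rat to rat. Over the 12 rats the log2 signals of the miR-199a arms had a Pearson r of 0.976 and a Spearman rho of 0.965 (permutation p = 1e-05 for each, the smallest that 100000 permutations can give). miR-199a-5p and miR-214 had an r of 0.906 (permutation p = 0.00024) and a rho of 0.846 (permutation p = 0.00081). miR-199a-3p and miR-214 had an r of 0.938 (permutation p = 1e-04) and a rho of 0.888 (permutation p = 0.00025). These p-values of 3 pairs are not adjusted. Without the rats farthest from the median of the first miRNA, H3 and C25, r was 0.972, 0.941 and 0.947 in the same order of pairs, and without H3 alone it was 0.977, 0.936 and 0.947. Among all 13041 pairs of the 162 miRNAs detected on every array the median r was 0.22, and 680 pairs, or 5.21%, had an r of 0.8 or more. An r at or above the lowest of the 3 pairs was found for 158 pairs, or 1.21%.

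The co-variation was present within each slide and each group. On the first slide r was 0.983 between the miR-199a arms, 0.985 between miR-199a-5p and miR-214, and 0.994 between miR-199a-3p and miR-214. On the second slide it was 0.980, 0.981 and 0.997. Among control rats it was 0.966, 0.977 and 0.915, and among high fat rats 0.974, 0.845 and 0.940. Each of these values rests on 6 rats. Array brightness, the 75th percentile itself, had an r of -0.03 with scaled miR-199a-5p (permutation p = 0.927), -0.045 with miR-199a-3p (permutation p = 0.889) and -0.27 with miR-214 (permutation p = 0.392), unadjusted. Spearman's rho was 0.091 (permutation p = 0.781), -0.007 (permutation p = 0.991) and -0.23 (permutation p = 0.472), and without C60 and A37, the rats with the most extreme brightness, r was 0.21, 0.18 and -0.0087. Within the first slide r was -0.46, -0.34 and -0.41, and within the second 0.37, 0.20 and 0.20. Without scaling the 3 pairs had an r of 0.979, 0.911 and 0.926.

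**Figure D2:**
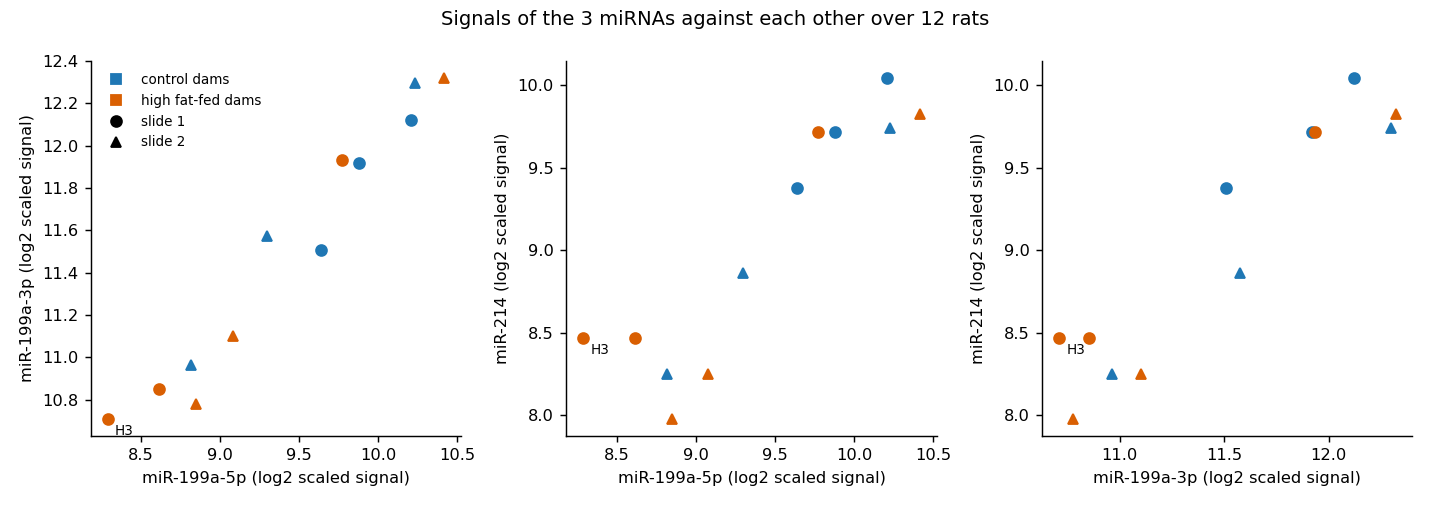
Log2 scaled signals of the 3 miRNAs plotted against each other, 1 point per rat, coloured by dam diet and shaped by slide, with H3 named. The points follow a rising line in each panel (r = 0.976, 0.906 and 0.938), and at like levels of the miR-199a arms miR-214 is lower on the second slide.

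The ratio of the miR-199a arms varied little. The signal of miR-199a-3p over that of miR-199a-5p on the same array lay between 3.65 and 5.36, with a median of 4.15. Probes respond unequally, so the size of this ratio does not say which arm is more abundant, and only its differences between rats are read. Its SD over the 12 rats was 0.17 on the log2 scale, against 0.16 that the software's errors of both signals give together. The log2 ratio was 2.05 ± 0.15 (SD, n = 6) in control and 2.11 ± 0.20 (SD, n = 6) in high fat offspring, a difference of 0.061 (exact permutation p = 0.563, two-sided like all such tests here). Without H3 this difference was -0.00082 (exact permutation p = 0.996).

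miR-214 took a different level relative to the miR-199a arms on each slide. The signal of miR-214 over that of miR-199a-5p was 0.834 to 1.13 on the first slide and 0.548 to 0.738 on the second, without overlap. The mean log2 ratio was -0.10 and -0.63, a difference of -0.53 (exact permutation p = 0.00216, which is the lowest value possible with 6 and 6 arrays). Over miR-199a-3p the ratio was 0.192 to 0.237 on the first slide and 0.138 to 0.177 on the second, a log2 difference of -0.48 (exact permutation p = 0.00216). Without H3 the differences were -0.47 and -0.49. Of all 13041 ratios of a pair of miRNAs detected on every array, 7.22% did not overlap between the slides either. By itself the log2 level of miR-214 differed between the slides by -0.48 (exact permutation p = 0.275), that of miR-199a-5p by 0.048 (exact permutation p = 0.909) and that of miR-199a-3p by -0.00054 (exact permutation p = 1). Of the 162 miRNAs detected on every array, 4.32% did not overlap between the slides by themselves. The slides were compared after the values were seen, and the part of the slide in these ratios cannot be told apart from a difference between the rats placed on it.

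By dam diet, the log2 ratio of miR-214 over miR-199a-5p differed by -0.038 (exact permutation p = 0.866), and that over miR-199a-3p by -0.099 (exact permutation p = 0.545). Without H3 the values were -0.15 (exact permutation p = 0.403) and -0.15 (exact permutation p = 0.383). Taken slide by slide, the diet difference of the arm ratio was 0.33 for the first and -0.21 for the second, and that of miR-214 over miR-199a-5p was 0.19 and -0.27. In both ratios the groups were apart on each slide, in opposite directions, as they were in 3.07% of all 13041 pair ratios.

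**Figure D3:**
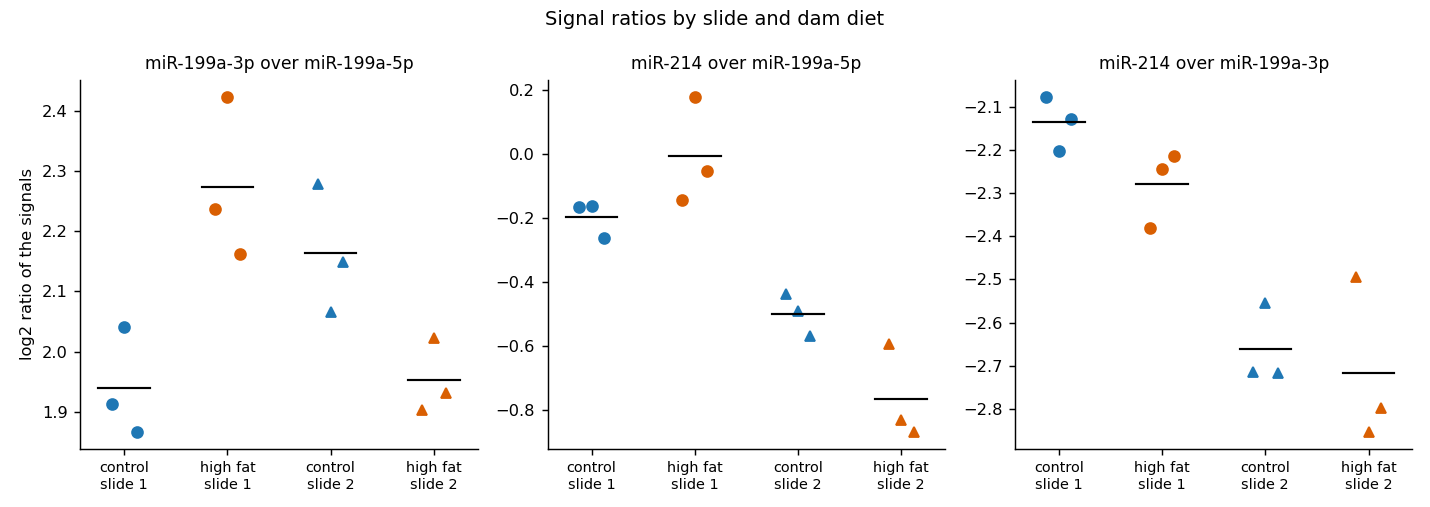
Log2 ratios of the signals of the 3 miRNAs on the same array, by slide and dam diet, with 3 rats in each column and a line at their mean. Both ratios with miR-214 are lower on the second slide (differences of -0.53 and -0.48), and the arm ratio spans 1.87 to 2.42 over all rats.

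No difference by dam diet was detected in any of the 3 miRNAs. The mean log2 signal of miR-199a-5p differed by -0.51 between the high fat and the control offspring, a 0.702-fold level (95% interval 0.410 to 1.2), with a limma p of 0.179 and an adjusted p of 0.685. That of miR-199a-3p differed by -0.45, a 0.733-fold level (0.458 to 1.17), with a limma p of 0.177 and an adjusted p of 0.685. That of miR-214 differed by -0.55, a 0.684-fold level (0.386 to 1.21), with a limma p of 0.176 and an adjusted p of 0.685. Exact permutation of the rats over 924 assignments gave p = 0.221, 0.21 and 0.214. The intervals reach from a fall of more than 2-fold to a small rise, and this number of rats does not tell a fall of that size from no change. For each of the 3 miRNAs, 4 of the 6 high fat rats and 2 of the 6 control rats were in the lower 6 of all rats. The 3 differences are not separate evidence, since the miRNAs move together.

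Limma called 0 of the 193 miRNAs tested at an adjusted p under 0.05 (0% called), and at an unadjusted p under 0.05 it gave 2 lower (1.04%) and 0 higher (0%) in high fat offspring, none of them among these 3. The median log2 difference of all 193 was -0.17, and relative to it miR-199a-5p stood at -0.34, miR-199a-3p at -0.28 and miR-214 at -0.38. Without scaling that median was 0.14 and the differences were -0.20, -0.14 and -0.24. Without H3 they were -0.33, -0.33 and -0.48 (exact permutation p = 0.4, 0.359 and 0.318). On the first slide the differences were -1.02, -0.68 and -0.83, and on the second -0.0014, -0.21 and -0.27. The exact permutation test within slides gave p = 0.25, 0.235 and 0.23, and the difference between the slides had a limma p of 0.186, 0.496 and 0.478.

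Other miRNAs whose signal followed the 3 were ranked by their Pearson r with the mean of the 3 over the 12 rats, as a description. Of the 159 others detected on every array, 17, or 10.7%, had an r of 0.8 or more, 32 were negative, and the median was 0.34. The 5 highest were miR-130a (0.965), miR-125b-5p (0.95), miR-152 (0.936), miR-674-3p (0.933) and miR-497 (0.920). miR-130a is known from blood vessel and fat cells, miR-125b from the control of muscle regeneration, miR-152 from repressing the DNA methyltransferase Dnmt1, and miR-497 from the cell cycle family of miR-15 and miR-16. The mature sequences of the 4 that the RefSeq table holds are shown to compare their seeds with those above.
miR-130a: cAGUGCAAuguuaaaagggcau
miR-125b-5p: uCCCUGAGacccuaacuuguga
miR-152: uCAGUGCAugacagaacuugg
miR-497: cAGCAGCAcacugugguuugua
None of these seeds is that of miR-199a-5p, miR-199a-3p or miR-214. The scaled signal of miR-130a ran from 596 to 1258 units over the rats, that of miR-125b-5p from 3244 to 7271, that of miR-152 from 109 to 265 and that of miR-497 from 1620 to 3427. For these 4 the highest rat exceeded the lowest 2.11-fold, 2.24-fold, 2.43-fold and 2.12-fold, less than for each of the 3 miRNAs (3.05-fold to 4.38-fold). miR-674-3p lay near the detection floor of 5.17 units, at 4.54 to 9.37, and under quantile normalization its r was -0.084. Without H3 the 5 had an r of 0.961, 0.948, 0.928, 0.921 and 0.941. Of the 5, 4 remained among the top 5 without H3, 4 without scaling and 3 under quantile normalization. By dam diet their log2 differences were -0.29, -0.36, -0.23, -0.21 and -0.32, with adjusted limma p-values of 0.685, 0.685, 0.700, 0.700 and 0.685.

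**Figure D4:**
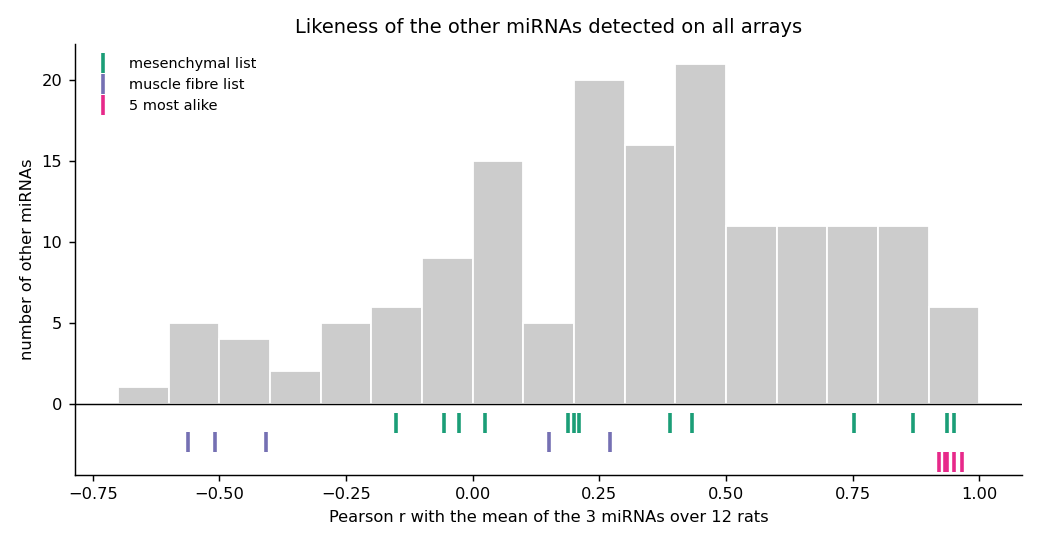
Number of other miRNAs (of 159 detected on every array) by their Pearson r with the mean of the 3 miRNAs over 12 rats. Ticks mark the mesenchymal list, the muscle fibre list and the 5 most alike, and the mesenchymal ticks spread from -0.15 to 0.95 while 3 of 5 muscle fibre ticks are negative, an order of the lists that turns under quantile normalization.

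The label of a fibroblast cluster was set against other miRNAs known from mesenchymal cells. Of the 4 others that mark fibroblasts and mesenchyme, miR-152 had an r of 0.936 with the mean of the 3, miR-143 0.39, miR-145 0.19 and miR-21 -0.057. Without H3 these were 0.928, 0.084, -0.16 and 0.085. Of a wider mesenchymal list of 21 miRNAs, 13 were detected on every array, with a median r of 0.21, below the 0.34 of all 159 others, and 3 (miR-125b-5p, miR-152 and miR-99a) at 0.8 or more, where 10.7% of all others reached it. On the first slide the list's median was 0.60, beside 0.60 for all others, and on the second 0.28 beside 0.31. Without H3 it was 0.32 beside 0.29. For the muscle fibre miRNAs r was -0.51 for miR-1, -0.56 for miR-133a, -0.41 for miR-133b, 0.15 for miR-206 and 0.27 for miR-499. Their median was -0.41, and without H3 it was -0.46, with miR-206 and miR-499 both turned to -0.46. Under quantile normalization the order of the lists turned, with a median of 0.13 for the fibre miRNAs, -0.14 for the mesenchymal list and -0.13 for all others. The endothelial miR-126 and miR-126* had an r of 0.37 and 0.19, and without H3 of 0.0091 and -0.22. The blood list of 6 had a median of 0.37, and of 0.41 without H3. The name therefore describes what is known of the miRNAs, and the cells that held them in these muscles were not measured.

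The lists of related miRNAs were read by diet in the same fit. Of the mesenchymal list, 15 were tested, 0 were called higher and 0 lower, and 12 differed in the negative direction, where 79.8% of all tested miRNAs did. Their median was -0.21, from -0.63 to 0.18, and without H3 it was -0.13. These directions rest on the scaling: without it 3 of the 15 and 20.7% of all tested miRNAs were negative, and the list's median was 0.10 beside 0.14 for all. The members with the widest differences were miR-127, an imprinted miRNA antisense to Rtl1, at -0.63, miR-196a, from the Hox clusters, at -0.37, miR-125b-5p at -0.36 and miR-487b at -0.27. miR-127 was detected on 10 of 12 arrays, at 18.9 ± 16.3 (SD, n = 6) against 9.98 ± 5.69 (SD, n = 6) scaled units. Its log2 difference was -0.31 without C73, -0.96 without H10 and -0.21 with the floor raised 4-fold. miR-196a was at 544 ± 87.7 (SD, n = 6) against 427 ± 98.2 (SD, n = 6) units, with an unadjusted limma p of 0.0584 and an adjusted p of 0.685.

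Of 9 miRNAs known to act on matrix genes or fibrosis, 8 were tested and 0 were called in either direction, as were 0 of all 193. Of the 8, 6 differed in the negative direction, where 79.8% of all tested miRNAs did. Their median was -0.05, beside -0.17 for all tested, and -0.058 without H3. Without scaling 0 of the 8 and 20.7% of all tested miRNAs were negative, and the list's median was 0.26 beside 0.14 for all. miR-21, known to promote fibrosis, differed by 0.10, and its r with the mean of the 3 was -0.057. miR-101a differed by -0.19, miR-19b, of the miR-17-92 cluster, by -0.16 and miR-30c, which represses connective tissue growth factor, by -0.072. The r with the mean of the 3 was 0.42 for miR-101a, 0.74 for miR-19b and -0.40 for miR-30c, and without H3 it was 0.18, 0.69 and -0.44. The collagen-repressing miR-29a, miR-29b and miR-29c had an r of 0.23, 0.34 and 0.081, and of 0.086, 0.083 and -0.042 without H3.

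**Figure D5:**
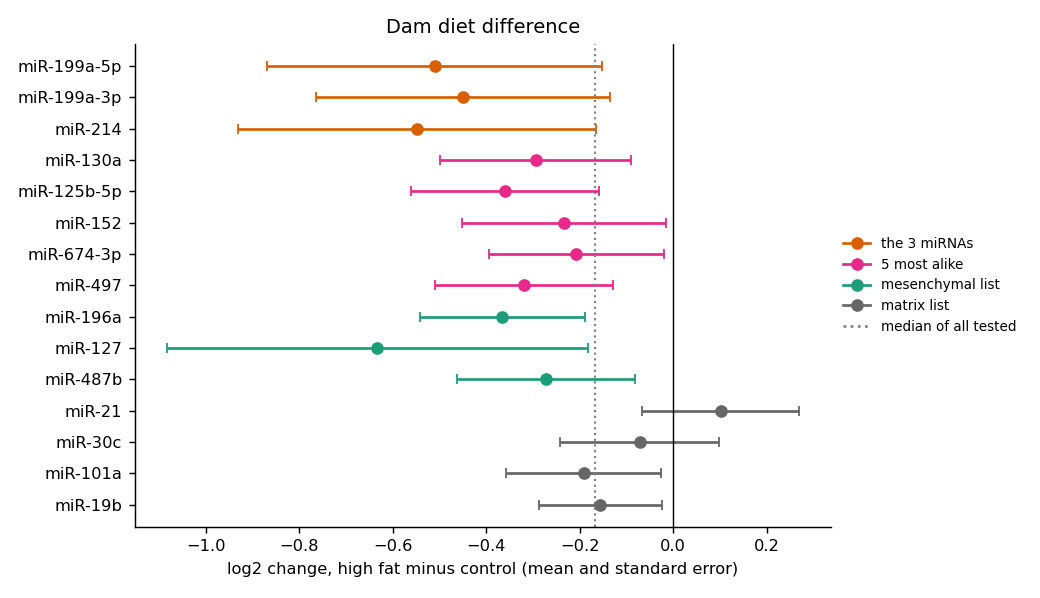
Log2 difference by dam diet, high fat minus control, as mean and standard error from limma over 6 and 6 rats. The 3 miRNAs lie at -0.51, -0.45 and -0.55 with wide errors, left of the median of all 193 tested (dotted, -0.17), and 0 of those shown passed the adjusted test.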

How the data were processed

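Soleus RNA of 12 rats was labelled with Cy3 (100 ng of total RNA) and hybridised to Agilent rat arrays based on miRBase release 16. For every array the authors deposited the summed signal intensity of each miRNA with its error and detection flag. The scanner software had subtracted background and combined the spots, and the arrays had not been normalized against each other. The value table of the series held the same intensities, with 0 differences. The software version is not given in the sources used here.

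The 22 control rows were left out. Each array was scaled to its 75th percentile, taken over the 162 miRNAs found on all 12 arrays, and signals were floored at 5.17 (the median over arrays of the lowest detected signal) and put on the log2 scale. limma 3.58.1 under R 4.3.3 compared the groups and adjusted p by Benjamini-Hochberg over the 193 miRNAs found on at least 6 arrays. Exact permutation tests covered 924 assignments, or 400 within slides, and 462 without H3. Correlations used 100000 permutations. Alternative settings changed the scaling, floor, filter on dim miRNAs, test or source table, added blocks for slide, row or the letter of the rat label, or left out each rat. The fit and the permutation tests were tested on simulated data.

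Groups were taken from the sample titles. The study's methods count fewer high fat rats than the labels, and its table of traits fewer control rats, without saying which were left out. All 12 labelled rats were used. Slides were read from the names of the array tables. The members and lists were chosen with earlier results of these data known. Besides the 3 miRNAs, the text names the other arms, the 4 widest differences in the mesenchymal and the matrix list, the 5 most alike miRNAs and the markers a result turns on. Slides were compared, and the diet difference set between them, only once the values were known. Sequences were matched to RefSeq by name, 3 of 3 for the miRNAs described and 4 of 5 for those most alike, and coordinates are those of GRCr8. The number of arrays limits the precision.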

Additional observations from a re-analysis of the deposited data

Results flagged for a closer look

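The diet difference in 2 of the 3 ratios ran in opposite directions on the slides, and it was chosen for a test after its values were seen. The log2 ratio of miR-199a-3p over miR-199a-5p was 1.87 to 2.04 in control and 2.16 to 2.42 in high fat rats on the first slide, and 2.07 to 2.28 in control and 1.90 to 2.02 in high fat rats on the second. The diet difference of the second slide minus that of the first was -0.54 (exact two-sided permutation test within slides, 400 assignments, p = 0.005, the smallest they allow). Without H3 it was -0.47 (exact permutation p = 0.005, the smallest that 200 assignments allow).

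The log2 ratio of miR-214 over miR-199a-5p was -0.26 to -0.16 in control and -0.14 to 0.18 in high fat rats on the first slide, and -0.57 to -0.44 in control and -0.87 to -0.59 in high fat rats on the second. The diet difference of the second slide minus that of the first was -0.45 (exact permutation p = 0.005), and without H3 -0.36 (exact permutation p = 0.005). The ratio of miR-214 over miR-199a-3p, which leaves out miR-199a-5p, gave 0.09 (exact permutation p = 0.52). These p-values are of 6 values tested, the 3 ratios and the 3 miRNAs, and are not adjusted. Of all 13041 ratios of a pair of miRNAs, 3.07% had groups apart on both slides in opposite directions. The arm ratio's SD over all rats, 0.17, was close to the 0.16 of the software's error, and the part of that error in the pattern was not tested.

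Single rats were set apart by Dixon's criterion in 9 of 146 groups of 6 values, where 7.3 are expected by chance and the scaled and log2 values of a miRNA are not independent. The groups were the 2 diets for 35 miRNAs, on both scales, and for 3 ratios. None of the 9 was of miR-199a-5p, miR-199a-3p, miR-214 or their ratios, and 7 were rat H3. On the log2 scale H3 was at 8.51 for miR-499 (12.3 to 12.96 in the other high fat rats), 5.54 for miR-145 (6.38 to 6.86), 13.19 for miR-206 (14.91 to 15.89), 11.46 for miR-143 (12.22 to 12.64), 10.97 for miR-126 (11.95 to 12.36) and 2.37, the floor, for miR-208b-3p (5.09 to 6.15). For miR-451 H3 was at 3054 scaled units (402 to 1315). The control rat A75 was at 112 units for miR-208b-3p (30.3 to 47.6 in the other controls), or 6.81 on the log2 scale (4.92 to 5.57).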

How the results depend on the processing

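The number of miRNAs with an adjusted p under 0.05 was 0 under all 16 alternatives and with each rat left out, by limma and by the methods' t-test. At an unadjusted p under 0.05 the 2 miRNAs became 6 under quantile normalization and median scaling, 8 when slide was a block, 5 when row was added to it, 12 with array weights and 1 with only miRNAs of all arrays or with a trend and robust fit. Leaving out each rat gave 1 (without A110) to 15 (without H1), with 6 without H10, 4 without A89 and 7 without C25. The methods' t-test on the scaled signals also gave 2 miRNAs at an unadjusted p under 0.05. miR-199a-5p, miR-199a-3p and miR-214 kept a negative diet difference under all 17 alternatives, from -0.51 to -0.20, -0.47 to -0.14 and -0.73 to -0.24. Leaving out each rat they ran from -0.76 to -0.33, -0.66 to -0.33 and -0.76 to -0.39. The pairs kept a positive r with a permutation p below 0.05 in the 11 alternatives run for them and with each rat left out. In the alternatives r was 0.934 to 0.982, 0.824 to 0.975 and 0.848 to 0.996. With each rat left out it was 0.970 to 0.981, 0.892 to 0.936 and 0.929 to 0.947.

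With each rat left out, the diet difference of the arm ratio ran from -0.00082 (without H3) to 0.11, that of miR-214 over miR-199a-5p from -0.15 to 0.059, turning positive without C25 (0.0037), H20 (0.051) and A37 (0.059), and that of miR-214 over miR-199a-3p from -0.16 to -0.028. The slide difference of the arm ratio turned to 0.00033 under quantile normalization and ran from -0.097 (without C60) to 0.015 (without H3), while those with miR-214 kept their direction and p. Diet differences turned positive with the 75th percentile over all miRNAs for miR-19b (0.016) and miR-30c (0.10), and with median scaling for the same miRNAs (0.022 and 0.11). Under quantile normalization they were 0.00066 for miR-101a, 0.047 for miR-19b, 0.14 for miR-30c and 0.13 for miR-674-3p. Without scaling they were 0.12 for miR-101a, 0.016 for miR-130a, 0.076 for miR-152, 0.15 for miR-19b, 0.24 for miR-30c, 0.038 for miR-487b and 0.093 for miR-674-3p. miR-30c also turned with the sum of signals (0.037) and without A75 (0.0048) or C25 (0.011). With all-miRNA percentile, no scaling, median scaling, quantile normalization and the sum of signals, the mesenchymal list's median was -0.036, 0.10, -0.031, -0.041 and -0.10, and the matrix list's 0.12, 0.26, 0.13, 0.14 and 0.058. Causes were not tested. miR-674-3p had no value at the higher floor, and the exact test was not run for counts over all miRNAs.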
